A study of Homo sapiens with 4 samples.

Results

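Aminoacyl-tRNA synthetases attach each amino acid to its transfer RNA, the step that fixes the genetic code before a ribosome reads it. Human cells encode most of them in the nucleus as separate genes for the cytosol and for mitochondria, and some cytosolic enzymes are held together in a multi-synthetase complex. In many cell types a part of the cytosolic genes are transcriptional targets of ATF4, the factor that is translated when the kinase-driven integrated stress response is active. The set described here lists 35 genes, 19 for cytosolic enzymes and 16, with symbols ending in 2, for mitochondrial ones. Of these, 34 are among the 22017 genes with a value in the table. The genes were listed by symbol, but with earlier results of these data known. All 34 passed the filter for low values (a mean of at least 10 over the 4 libraries); VARS2, the mitochondrial valyl enzyme, is not analysed here.

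U87, an established human glioblastoma line, was transfected with lipofectamine at 50 nM and harvested after 48 h. The tRF-3009a mimic, an oligonucleotide copy of a fragment of transfer RNA, was given in 2 libraries, and ssGL2, a single strand of an siRNA against luciferase, was given in 2 control libraries. All 4 come from the same line, from poly(A)-selected RNA, and carry a transfected single strand. In each group the titles number the libraries 1 and 2; the labels do not say what a number stands for, nor whether separate cultures stand behind the libraries of a group, so the p-values measure only the spread between these libraries.

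The deposited values are normalized reads per transcript (as far as the values show, reads divided by 1 factor for each library), summed here per gene and called values below. Recovered whole reads came to 33255600 and 33848400 in mimic libraries 2 and 1, and to 28860800 and 30153400 in control libraries 2 and 1. Libraries of the same number lay closer together than libraries of the same treatment: over all genes tested, deviations from the group means correlated at r = 0.75 (across genes, which are not independent replicates) between libraries that share a number. Of the 7 glial and mesenchymal markers, VIM, CD44 and FN1 carried nearly all of the summed level, while GFAP, OLIG2, SOX2 and NES carried little. Their summed level per transcript length, scaled to 1000000 in each library, was 4867 and 5017 in mimic and control libraries 2, against 10310.3 and 10870.2 in libraries 1. The glial markers themselves were close to 0, with GFAP at 0.59 to 1.95, OLIG2 at 2.05 to 10.6 and SOX2 at 0.23 to 0.46. Neuronal markers summed to between 17.8 and 29.2, epithelial markers to between 1.25 and 2.52, endothelial markers to between 0.30 and 1.39, and immune markers to between 0.10 and 0.23, with RBFOX3, KRT19, CD3E and AIF1 among the markers without a value. The neuronal sum hides opposite directions. SNAP25 had 2.38 and 2.61 in mimic and control libraries 2, against 22.7 and 23.4 in libraries 1. SYT1 had 16.2 and 15.2 in libraries 2, against 5.81 and 5.78 in libraries 1. The immune sum rests on PTPRC alone.

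The first comparison, mimic against control, is the one the study was designed for. No synthetase gene passed the test for a difference between the mimic and the control libraries. For 33 of the 34 genes, the log2 difference was smaller than 0.25 in size. The cytosolic genes had a median log2 difference of 0.04 and the mitochondrial genes one of -0.0050, against -0.01 over all 16523 genes tested. By limma, 0 genes of the table passed an adjusted p of 0.05 (0% of genes tested), 26 had an unadjusted p under 0.05, and none of these was a synthetase; edgeR and DESeq2 on recovered reads also called 0. The smallest unadjusted p of a synthetase was 0.37. None of these fits had a term for the library number, so the distance between the numbers counted as error and weakened the test. A fit with the number as a block is given in the closing section on processing.

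Within libraries of the same number, the mimic differed from the control as little. The cytosolic genes had a median of -0.00098 within number 2 and 0.06 within number 1. The mitochondrial genes had a median of -0.0053 within number 2 and -0.04 within number 1. Apart from CARS1, single genes lay between -0.16 and 0.39 within number 2 and between -0.43 and 0.25 within number 1. The sign was shared by both numbers for 13 of the 34 genes.

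FARSA and TARS2 were the 2 of 34 genes whose mimic and control libraries did not overlap, against 12.4% of all genes tested. FARSA encodes the alpha subunit of the cytosolic phenylalanyl enzyme, a heterotetramer of alpha and beta subunits. It had values of 3152 and 3048 in mimic libraries 2 and 1, against 3258 and 3289 in control libraries 2 and 1, a log2 difference of -0.08 ± 0.19 (SE, limma adjusted p = 1.00). TARS2, the mitochondrial threonyl enzyme, had 961 and 988 in the mimic libraries, against 1019 and 1037 in the control libraries, a log2 difference of -0.08 ± 0.21 (limma adjusted p = 1.00).

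The gene furthest from 0 was CARS1, the cytosolic cysteinyl enzyme, at -0.54 ± 0.54 (limma adjusted p = 1.00). Its values were 26.6 and 13.5 in mimic libraries 2 and 1, against 31.4 and 24.9 in control libraries 2 and 1. They rest on 5 transcripts, none of which held more than 23 units in any library, and transcripts of CARS1 outside these 5 were not matched to the annotation used, so the value is not the level of the gene. VARS1, the cytosolic valyl enzyme, followed at -0.21 ± 0.33 (limma adjusted p = 1.00), with 3844 and 2308 in mimic libraries 2 and 1 against 3796 and 3116 in the control libraries. Mimic library 1 was the lowest, and control library 1 was also below both libraries 2. The value rests on 3 matched transcripts, so any VARS1 transcript that was not matched is missing from it, and without mimic library 1 its log2 difference was 0.16. PARS2 was at -0.17 ± 0.76 and changed sign likewise, to 0.66, without mimic library 1. The error of these differences held the distance between the numbers, which is described next. With 1 library left out, mimic and control no longer hold libraries of the same numbers, so the difference takes in part of that distance. The median of the cytosolic genes was then -0.51 (without control 1), -0.39 (without mimic 2), 0.53 (without control 2) or 0.43 (without mimic 1).

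**Figure D1:**
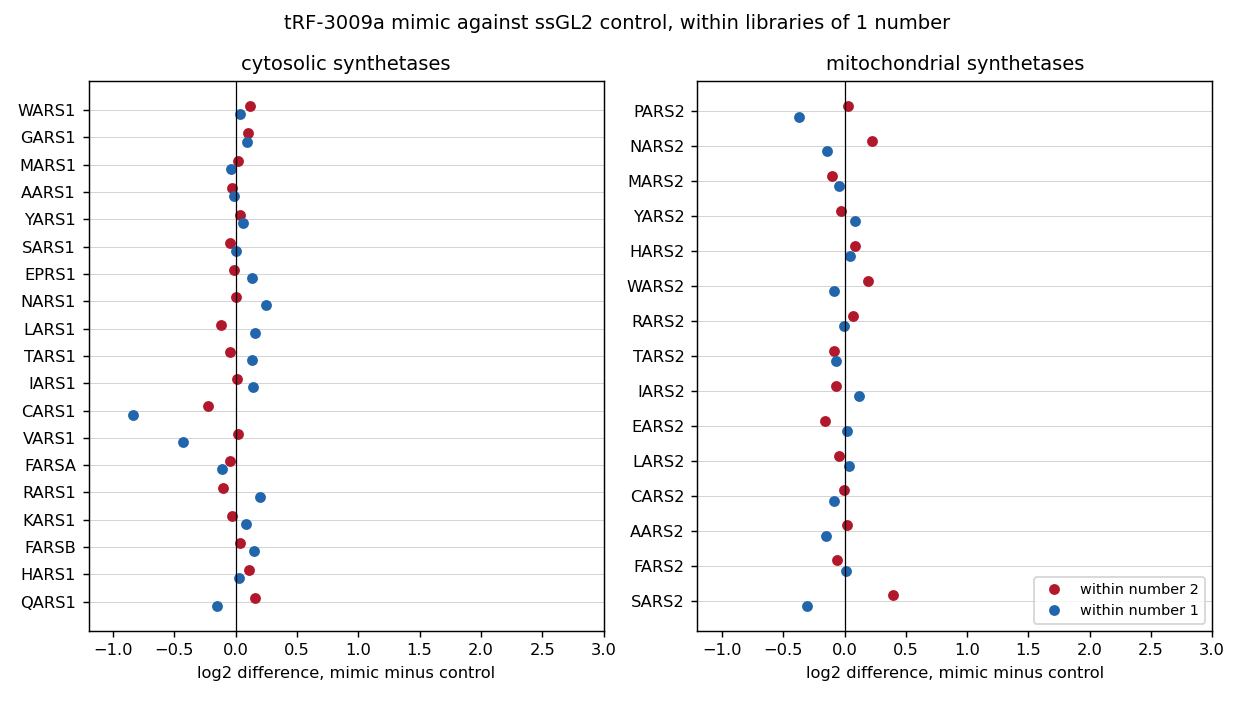
Log2 difference, mimic minus control, of each synthetase gene (rows, ordered by the difference between numbers), within libraries numbered 2 (red) and within libraries numbered 1 (blue); each point compares 1 library with 1 library. Apart from CARS1, points lie between -0.43 and 0.39 and fall on both sides of 0.

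Libraries numbered 2 were then set against libraries numbered 1, with 1 mimic and 1 control library on each side. Of the 19 genes for cytosolic synthetases, 12 passed the test as higher in number 2, led by WARS1, GARS1, MARS1, AARS1 and YARS1, 3 passed as lower and 4 did not pass. Genes for mitochondrial synthetases had no common direction: 3 of 15 were higher, 5 lower and 7 did not pass. The median log2 difference was 0.88 over the cytosolic genes and -0.03 over the mitochondrial genes, against 0.01 over all genes tested.

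These counts stand beside a broad difference between the numbers: 50.2% of the 16523 genes tested passed, 26% as higher and 24.2% as lower, by limma at an adjusted p of 0.05. More than 2-fold higher and past the test were 8 of the 19 cytosolic genes and 1 of the 15 mitochondrial genes, against 8.2% of all genes tested. The median of the cytosolic genes was 0.82 within the mimic libraries and 0.97 within the control libraries, and 0.96 over both when CARS1 and VARS1 were left out of the list, a choice made after the data were seen. The summed level of the glial and mesenchymal markers, given above, was lower in both libraries 2, as VIM, CD44 and FN1 carry it, while OLIG2 was at 10.6 and 9.78 in mimic and control libraries 2, against 2.05 and 2.60 in libraries 1. The part of these markers in the synthetase differences was not tested. In bulk RNA, fewer cells of a type and less RNA per cell cannot be told apart. The median of the mitochondrial genes was -0.04 within the mimic libraries and -0.03 within the control libraries.

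**Figure D2:**
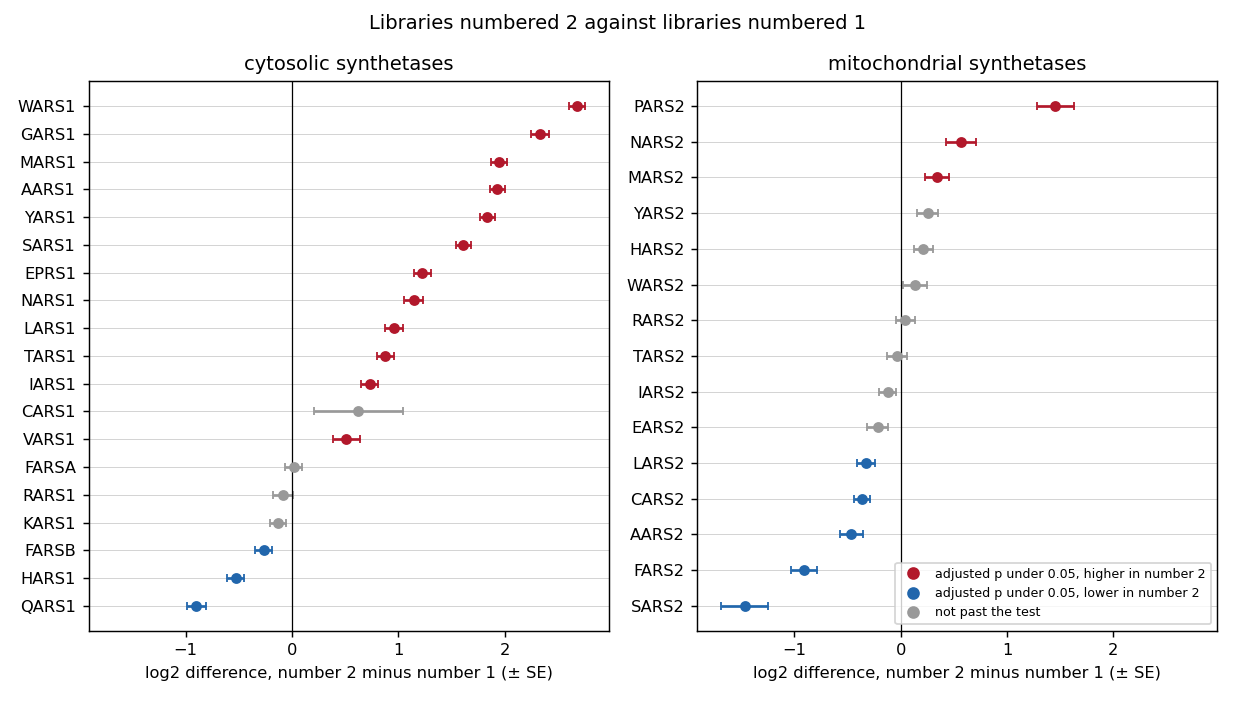
Log2 difference, number 2 minus number 1 (limma, ± SE), of the 19 cytosolic (left) and 15 mitochondrial (right) synthetase genes; red and blue points passed an adjusted p of 0.05 as higher or lower in number 2, grey points did not. The cytosolic panel reaches 2.68 at WARS1, and most mitochondrial genes lie near 0, with PARS2 and SARS2 at the ends.

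WARS1, the cytosolic tryptophanyl enzyme and also a known interferon-induced gene, lies on chromosome 14 (GRCh38, chr14:100333788-100376805, minus strand). It had values of 25829 and 23803 in mimic and control libraries 2, against 3915 and 3823 in mimic and control libraries 1. Both libraries numbered 2 were more than 6 times as high as both libraries numbered 1, a log2 difference of 2.68 ± 0.08 (limma adjusted p = 6.04e-08). GARS1, the glycyl enzyme whose single gene serves the cytosol and mitochondria (chr7:30594681-30634033, plus strand), had 45134 and 42045 in libraries 2, against 8939 and 8367 in libraries 1. The log2 difference was 2.33 ± 0.08 (limma adjusted p = 1.31e-07). GARS1 also had the highest level per transcript length of all members, with a mean of 636 on the scale of 1000000 per library.

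MARS1 charges both the initiator and the elongator methionine tRNA. It had 14190.2 and 14008 in mimic and control libraries 2, against 3610 and 3708 in libraries 1, a log2 difference of 1.95 ± 0.07 (limma adjusted p = 1.90e-07). AARS1, the alanyl enzyme, had 19882 and 20307 in libraries 2, against 5231 and 5291 in libraries 1, and YARS1, the tyrosyl enzyme, had 19959 and 19510 in libraries 2, against 5633 and 5396 in libraries 1. Their log2 differences were 1.93 ± 0.07 and 1.84 ± 0.07. SARS1, the seryl enzyme that also serves selenocysteine tRNA, had 20867 and 21538 in libraries 2, against 6937 and 6915 in libraries 1, a log2 difference of 1.61 ± 0.07. In these 4 genes mimic and control libraries of the same number differed by less than 5%.

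EPRS1 carries the glutamyl and the prolyl enzyme in a single protein. It had 15434 and 15628 in mimic and control libraries 2, against 6938 and 6338 in libraries 1, a log2 difference of 1.23 ± 0.08. NARS1, the asparaginyl enzyme, had 17449 and 17461 in libraries 2, against 8599.8 and 7252 in libraries 1, a log2 difference of 1.14 ± 0.09 (limma adjusted p = 1.40e-05). These complete the 8 genes that were more than 2-fold higher. LARS1, the leucyl enzyme, which is also known as a leucine sensor for mTORC1, had 10897 and 11832 in libraries 2, against 6154 and 5510.1 in libraries 1 (log2 difference 0.96 ± 0.09). TARS1, the threonyl enzyme, had 12229.6 and 12653 in libraries 2, against 7094 and 6473 in libraries 1 (0.88 ± 0.08). IARS1, the isoleucyl enzyme, had 33178 and 32903 in libraries 2, against 20872 and 18973 in libraries 1 (0.73 ± 0.08). In all 3 genes both libraries 2 were above both libraries 1. VARS1, with the values above, was higher by 0.51 ± 0.13 (limma adjusted p = 0.0089), but its call was lost without mimic library 2 (0.50, adjusted p = 0.10) and without control library 2 (0.52, adjusted p = 0.093).

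QARS1, HARS1 and FARSB were the 3 cytosolic genes that were lower in number 2. QARS1, the glutaminyl enzyme and a member of the multi-synthetase complex, had 2303 and 2063 in mimic and control libraries 2, against 3855 and 4283 in libraries 1, a log2 difference of -0.90 ± 0.09 (limma adjusted p = 5.51e-05). HARS1, the histidyl enzyme, had 2306 and 2143 in libraries 2, against 3242 and 3177 in libraries 1, a log2 difference of -0.53 ± 0.08 (limma adjusted p = 5.91e-04). FARSB, the beta subunit that pairs with FARSA, had 3033 and 2956 in libraries 2, against 3798 and 3417 in libraries 1. Its log2 difference of -0.27 ± 0.08 (limma adjusted p = 0.026) was lost without mimic 1 (-0.19, adjusted p = 0.065), without mimic 2 (-0.29, adjusted p = 0.14) and without control 2 (-0.25, adjusted p = 0.19).

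The cytosolic genes that did not pass were FARSA (0.02 ± 0.08), RARS1 (-0.08 ± 0.09), KARS1 (-0.13 ± 0.08) and CARS1 (0.63 ± 0.42). RARS1, the arginyl enzyme, had 4328 and 4662 in mimic and control libraries 2, against 5093 and 4453 in libraries 1, and the groups overlapped. KARS1, the lysyl enzyme, makes its cytosolic and mitochondrial forms from a single gene by alternative splicing. It had 5546 and 5672 in libraries 2, against 6342 and 5980.1 in libraries 1.

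Membership of the multi-synthetase complex did not separate the higher genes from the others. Of the 7 complex members, 4 were higher (MARS1, EPRS1, LARS1, IARS1), 1 was lower (QARS1) and 2 did not pass (KARS1, RARS1), with a median log2 difference of 0.73. Of the 12 other cytosolic genes, 8 were higher and 2 lower, with a median of 1.01. The difference between these medians was not tested.

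**Figure D3:**
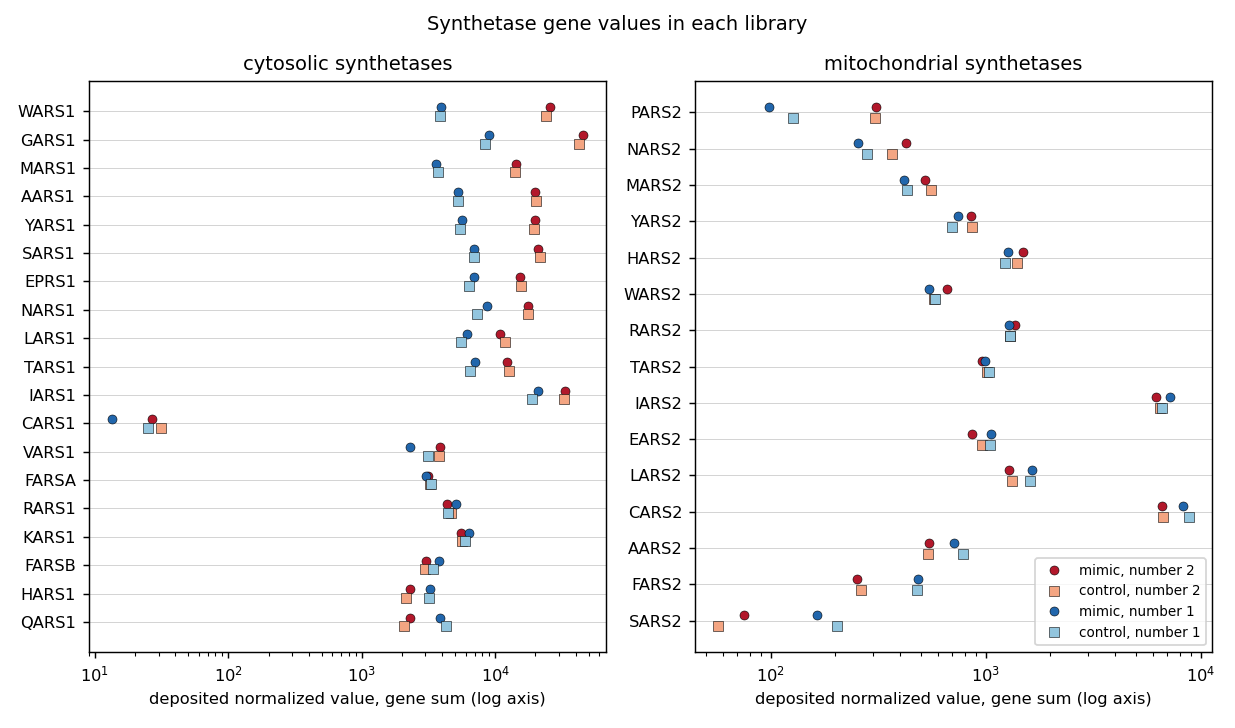
Deposited normalized value, summed per gene (log axis), of each synthetase gene in the 4 libraries: circles are mimic, squares control, red shades number 2 and blue shades number 1. For WARS1, GARS1, MARS1, AARS1, YARS1 and SARS1 the red pair stands clear of the blue pair, and within a pair circle and square nearly coincide.

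Among the mitochondrial genes, PARS2 rose most. PARS2, the prolyl enzyme (chr1:54756898-54764514, minus strand), had 310.3 and 305 in mimic and control libraries 2, against 98.0 and 127 in libraries 1, a log2 difference of 1.46 ± 0.18 (limma adjusted p = 1.54e-04). It rests on 1 transcript. NARS2, the asparaginyl enzyme, had 427 and 365 in libraries 2, against 254 and 281 in libraries 1, a log2 difference of 0.56 ± 0.14 (limma adjusted p = 0.0088) that was lost without mimic 2 (0.45, adjusted p = 0.11). MARS2, the methionyl enzyme, had 521 and 559 in libraries 2, against 419 and 432 in libraries 1, a log2 difference of 0.34 ± 0.11 (limma adjusted p = 0.033). MARS2 was lost under DESeq2 (0.34, adjusted p = 0.095), without mimic 1 (0.32, adjusted p = 0.072), without mimic 2 (0.39, adjusted p = 0.10) and without control 2 (0.29, adjusted p = 0.20).

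SARS2 was the mitochondrial gene that fell most. SARS2, the seryl enzyme (chr19:38915266-38930896, minus strand), had 75.4 and 57.2 in mimic and control libraries 2, against 165 and 204 in libraries 1, a log2 difference of -1.47 ± 0.22 (limma adjusted p = 5.76e-04). FARS2, the phenylalanyl enzyme, which works as a single chain in mitochondria, had 252 and 262 in libraries 2, against 484 and 480.3 in libraries 1, a log2 difference of -0.91 ± 0.12 (limma adjusted p = 3.03e-04). The same amino acids thus had cytosolic genes at 1.61 (SARS1) and at 0.02 and -0.27 (FARSA and FARSB).

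Smaller falls were seen in AARS2, CARS2 and LARS2, the alanyl, cysteinyl and leucyl enzymes. AARS2 had 547 and 538 in mimic and control libraries 2, against 709 and 788 in libraries 1 (-0.46 ± 0.11, limma adjusted p = 0.0064). CARS2 had 6632 and 6656 in libraries 2, against 8313 and 8812 in libraries 1 (-0.37 ± 0.07, limma adjusted p = 0.0031). LARS2 had 1281 and 1321 in libraries 2, against 1649.7 and 1610.0 in libraries 1 (-0.33 ± 0.08, limma adjusted p = 0.011). All 3 kept their direction, but the calls were lost without mimic 2 (AARS2 -0.47, CARS2 -0.36, LARS2 -0.30; adjusted p = 0.061, 0.066 and 0.11) and without control 2 (AARS2 -0.45, CARS2 -0.37, LARS2 -0.35; adjusted p = 0.068, 0.061 and 0.078).

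The 7 mitochondrial genes that did not pass lay between -0.21 (EARS2) and 0.25 (YARS2, limma adjusted p = 0.057). EARS2 charges both glutamate and glutamine tRNA in mitochondria, where the glutamine is then made on the tRNA by an amidotransferase. It had 863 and 962 in mimic and control libraries 2, against 1064 and 1049 in libraries 1 (-0.21 ± 0.10). HARS2, the histidyl enzyme, had 1490.5 and 1402 in libraries 2, against 1266 and 1227 in libraries 1, a log2 difference of 0.21 ± 0.09 (limma adjusted p = 0.072). With protein-coding transcripts alone HARS2 passed (0.24, adjusted p = 0.049). IARS2, RARS2, TARS2 and WARS2 were between -0.12 and 0.13.

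Set beside its mitochondrial counterpart, the cytosolic gene had the higher log2 difference, sign included, in 11 of 13 pairings. These draw on 12 mitochondrial genes because FARSA and FARSB share FARS2, and CARS1 was left out. EPRS1, with its 2 enzymes in a single protein, was not paired either. Its log2 difference of 1.23 lay below that of PARS2 (1.46) and above that of EARS2 (-0.21). Among the 13 pairings, the exceptions were HARS1 (-0.53) with HARS2 (0.21) and RARS1 (-0.08) with RARS2 (0.05). The 11 include FARSA (0.02) and FARSB (-0.27) with FARS2 (-0.91), where the mitochondrial gene lay further from 0. In level per transcript length, the cytosolic gene was above the mitochondrial one in every library in all 13 pairings. The median ratio of these levels was 14.2 and 13.9 in mimic and control libraries 2, against 5.94 and 6.36 in libraries 1. The widest ratio was that of SARS1 over SARS2, at 312 and 401 in libraries 2, against 49.2 and 39.6 in libraries 1, where the cytosolic gene was higher and the mitochondrial gene lower in number 2. For HARS1 over HARS2 it was 1.54 and 1.53 in libraries 2, against 2.64 and 2.44 in libraries 1. No test was made of these ratios.

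In level per length, the cytosolic genes together held 6259 and 6009 of 1000000 in mimic and control libraries 2, against 2749 and 2484 in libraries 1. The mitochondrial genes held 599 and 596 in libraries 2, against 707 and 688 in libraries 1. The cytosolic levels were highest for GARS1, SARS1 (mean 506), WARS1 (479), IARS1 (410) and YARS1 (350). The mitochondrial levels were highest for CARS2 (285) and IARS2 (117) and lowest for SARS2 (4.0) and PARS2 (5.53). Both genes at the ends of the mitochondrial differences therefore had the lowest levels of their set.

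HARS1 and HARS2 stand head to head on chromosome 5 and are read in opposite directions from starts 85 bases apart (RefSeq, GRCh38.p14). Their promoter windows, each 250 bases before and 50 after the start, share 184 bases. The window of HARS2 (chr5:140691205-140691504, plus strand) is shown because HARS1 was lower in number 2 while HARS2, with which it shares this DNA, did not pass; capitals mark the bases that also lie in the window of HARS1.
HARS2: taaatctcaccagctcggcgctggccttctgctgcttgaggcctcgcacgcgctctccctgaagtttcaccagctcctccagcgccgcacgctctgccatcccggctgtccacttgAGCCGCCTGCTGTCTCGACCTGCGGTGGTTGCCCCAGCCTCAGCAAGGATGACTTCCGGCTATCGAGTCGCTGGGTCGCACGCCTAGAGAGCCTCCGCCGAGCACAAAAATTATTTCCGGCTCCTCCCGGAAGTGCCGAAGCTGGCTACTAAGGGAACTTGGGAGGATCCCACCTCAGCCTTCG
The leading HARS1 transcript in the values, HARS-207, starts at 140691862, outside both windows. It held a mean of 85.2% of the gene's value, so the windows do not cover the start behind most of it. The library kit kept strand per the labels, but whether the counting used it is not given in the sources used here. Reads in the overlap of the annotated genes may therefore have been split (HARS1 reaches up to 140691862 and HARS2 begins at 140691426).

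The C/EBP-ATF element is the DNA motif that ATF4 binds together with a C/EBP partner. As TGATGNAA on either strand (N is any base), it was searched in the RefSeq promoter windows (GRCh38.p14), which were found for 30 of the 35 genes; YARS1, LARS1, VARS1, VARS2 and AARS2 had no entry. It was present for 7 of 16 cytosolic genes (43.8%) and for 1 of 14 mitochondrial genes (7.14%), against 4.46% of the 27305 genes with a window. Of the 9 cytosolic genes with a window that were higher in number 2, 6 held it, and of the 6 others without CARS1, 0 held it. CARS1 did not pass but also holds it, so leaving it out sharpens this split. The split was not tested. Among the cytosolic genes, CARS1, GARS1, SARS1, TARS1 and WARS1 have 2 windows each. The stretches around the matches are given because 6 of these genes were higher in number 2; capitals mark the match, read on the strand of the gene.
AARS1 (chr16:70289656-70289723, minus strand): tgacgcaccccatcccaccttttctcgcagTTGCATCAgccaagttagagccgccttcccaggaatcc
CARS1 (chr11:3057388-3057455, minus strand): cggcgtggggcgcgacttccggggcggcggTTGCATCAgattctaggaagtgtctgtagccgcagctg
GARS1 (chr7:30594815-30594882, plus strand): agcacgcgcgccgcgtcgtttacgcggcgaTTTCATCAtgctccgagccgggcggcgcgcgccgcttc
IARS1 (chr9:92293673-92293740, minus strand): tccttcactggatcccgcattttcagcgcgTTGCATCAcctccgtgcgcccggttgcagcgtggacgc
MARS1 (chr12:57488034-57488101, plus strand): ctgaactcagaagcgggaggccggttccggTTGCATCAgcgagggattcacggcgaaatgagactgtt
NARS1 (chr18:57621787-57621852, minus strand): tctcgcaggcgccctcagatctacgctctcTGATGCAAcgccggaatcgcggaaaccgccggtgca
TARS1 (chr5:33440937-33441004, plus strand): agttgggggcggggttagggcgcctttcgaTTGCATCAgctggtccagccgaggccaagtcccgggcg
YARS2 (chr12:32756057-32756124, minus strand): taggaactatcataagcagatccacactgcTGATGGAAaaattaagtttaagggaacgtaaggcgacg
Of the 7 cytosolic matches, 6 began within 33 bases of the annotated start, CARS1, GARS1, IARS1 and MARS1 before it and NARS1 and TARS1 after it, and that of AARS1 began 187 bases before it. The match of YARS2 began 197 bases before its start. WARS1, SARS1 and EPRS1 were more than 2-fold higher in number 2 and had no match in their windows, which says only that these letters are not in those windows. These distances are from the RefSeq start of the window that holds the match, which need not be the start of the gene's leading transcript in the deposited values. That window starts 111 bases downstream of the leading transcript's start in MARS1, 197 in GARS1, 269 in TARS1 and 337 in NARS1, so that in these 4 genes the match begins 107, 164, 272 and 352 bases after the leading start. In AARS1, CARS1, IARS1 and YARS2 the distance between the starts was 3 to 37 bases. A match is a description of sequence; binding was not measured.

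**Figure D4:**
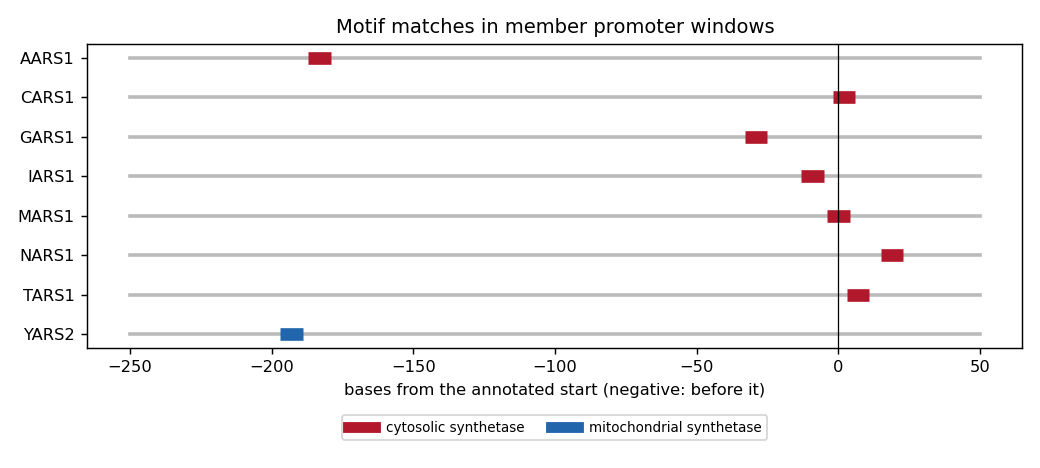
Position of each TGATGNAA match (bars, either strand) in the promoter windows of the synthetase genes (grey lines, 250 bases before to 50 after the annotated start at 0). Starts are those of the RefSeq window, which differ from the leading transcript's start in MARS1, GARS1, TARS1 and NARS1. Of the 7 cytosolic matches, 6 lie close to it, and those of AARS1 (-187) and YARS2 (-197) lie far before it.

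The transcripts behind the gene sums were looked at next. The 34 genes had 295 transcripts with values, and in 25 of them the leading transcript held more than 80% of the gene's mean value; it was a protein-coding one in 33 of 34, CARS1 being the exception. Protein-coding transcripts held 94.3% and 94.6% of the cytosolic sum in mimic and control libraries 2, and 93.6% and 94.3% in libraries 1. Transcripts annotated with a retained intron held 4.30% and 4.72% of the mitochondrial sum in mimic and control libraries 2, against 5.28% and 6.67% in libraries 1. Nearly all of this came from CARS2. In mimic and control libraries 2, CARS2 held 953 and 1040 of the 965 and 1069 units. In libraries 1 it held 1305 and 1661 of 1329 and 1682. In TARS1 a transcript annotated for nonsense-mediated decay, TARS-209, held a mean of 24.4% of the gene's value. All TARS1 transcripts annotated so held 36.5% and 33.1% in mimic and control libraries 2, against 34.0% and 32.6% in libraries 1.

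In WARS1 the difference between the numbers was unequal across transcripts that start at different places. The split by start was chosen after the values were seen. The 15 transcripts that start upstream (100376251 to 100376805) summed to 8886 and 9284 in mimic and control libraries 2, against 2428 and 2575 in libraries 1, ratios of 3.66 within the mimic and 3.61 within the control libraries. The 16 transcripts that start downstream (100375347 to 100375744) summed to 16704 and 14259 in libraries 2, against 1408 and 1185 in libraries 1, ratios of 11.9 and 12. The downstream group held 64.7% and 59.9% of the gene's value in libraries 2, against 36.0% and 31.0% in libraries 1.

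WARS-203, the leading transcript of the upstream group, codes for 430 codons. It had 7795 and 8243 in mimic and control libraries 2, against 2050.4 and 2263 in libraries 1. WARS-204, the leading transcript of the downstream group, codes for 471 codons and had 8640.2 and 7201 in libraries 2, against 754 and 522 in libraries 1. The longer form is the full-length enzyme and the shorter one lacks its amino-terminal end, as background from human WARS1. Coding length did not follow the start, since WARS-201 in the downstream group also codes for 430 codons and had 2128 and 1987 in libraries 2, against 129 and 178 in libraries 1. These transcripts share most of their exons, so their values depend on how reads were divided among them.

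**Figure D5:**
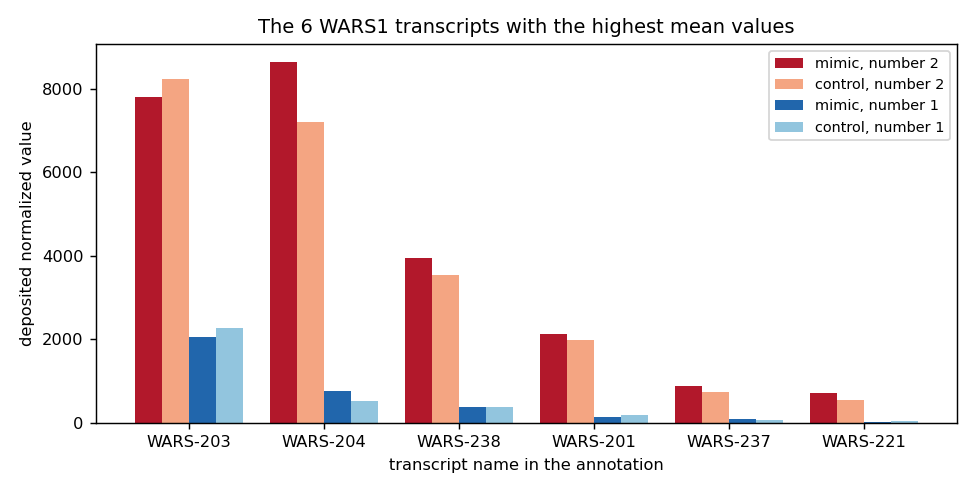
Deposited normalized value of the 6 WARS1 transcripts with the highest means in the 4 libraries (red shades number 2, blue shades number 1; mimic left of control). WARS-203 leads in libraries 1, and WARS-204 is at about the same height as WARS-203 in libraries 2.

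In KARS1 the balance of both products was similar in all libraries. KARS-201, which codes for the 597 codons of the cytosolic form, held 84.3% and 84.9% of the gene's value in mimic and control libraries 2, against 85.5% and 87.2% in libraries 1. KARS-202, which codes for the 625 codons of the mitochondrial form, held 6.42% and 7.27% in libraries 2, against 5.18% and 6.46% in libraries 1. In QARS1 the transcript QARS-209 was listed at 0 in both libraries 2, against 131 and 95.6 in libraries 1, while the leading QARS-201 had 2035 and 1839 in libraries 2, against 3304 and 3898 in libraries 1.

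Other genes of aminoacylation and translation were compared between the numbers in the same fit. The shares called in lists of this size are read against the 50.2% of all genes that passed (26% higher, 24.2% lower). Of 12 other aminoacylation genes, 5 were higher (SEPSECS, AIMP2, DTD1, TARS3, AIMP1) and 2 lower (PSTK, QRSL1), close to that background, with a median log2 difference of 0.23 against 0.01 over all genes tested. AIMP2, a scaffold of the multi-synthetase complex, had 2683 and 2868 in mimic and control libraries 2, against 1375 and 1328 in libraries 1 (1.04 ± 0.08, limma adjusted p = 1.37e-05). SEPSECS, which makes selenocysteine on the tRNA that SARS1 first charges with serine, had 458 and 437 in libraries 2, against 197 and 179.7 in libraries 1 (1.25 ± 0.14, limma adjusted p = 7.82e-05). PSTK, the kinase that acts just before SEPSECS on the same tRNA, was lower (-0.74 ± 0.20, limma adjusted p = 0.014). Of the subunits of the mitochondrial glutaminyl amidotransferase, QRSL1 was lower (-0.34 ± 0.09), while GATB was at -0.07 and GATC at 0.09.

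Of the 5 cytosolic elongation factor genes (median 0.30), 3 were higher (EEF1B2 0.58, EEF1G 0.30 and EEF1A2 1.19) and EEF2 was lower (-0.42 ± 0.09, limma adjusted p = 0.0046). EEF1A2 was low, with 29.6 and 32.5 in mimic and control libraries 2, against 18.0 and 9.36 in libraries 1 (1.19 ± 0.44, limma adjusted p = 0.049). Of the 8 mitochondrial translation factor genes (median 0.08), 3 were higher (MRRF 0.53, GFM2 0.43 and TUFM 0.33) and GFM1 was lower (-0.27); 4 of 8 called is the background share. Further lists stood far from 0. All 15 integrated stress response targets, which include ATF4 itself, were higher, with a median of 3.01; ATF4 had 17049.8 and 17967 in mimic and control libraries 2, against 6836 and 7289 in libraries 1 (1.31 ± 0.08), and ASNS, the asparagine synthetase, had 17176 and 18173 in libraries 2, against 914 and 857 in libraries 1 (4.32 ± 0.08). All 10 proliferation genes fell, at a median log2 difference of -1.81. The lists were chosen with results of these data known, so these counts are not independent evidence, and their part in the synthetase differences was not tested.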

How the data were processed

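RNA-seq of 4 U87 libraries was used. The authors deposited a normalized signal per Ensembl transcript; kallisto, DESeq2 and hg38 are named, without versions, per the submitters' processing notes. Between 95.6% and 99.7% of low values per library were whole multiples of 1 step (tolerance 0.1), which gave whole reads for edgeR and DESeq2. Of 100809 transcripts, 90627 (89.9%) matched GENCODE v29 (GRCh38) and were summed over 22017 genes; unmatched transcripts held 3.26% to 3.57% of the values. The lowest recovered sum of a row was 10 reads.

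Genes with a mean of at least 10 were tested with limma (trend) on log2(value + 1), two-sided, with Benjamini-Hochberg adjustment at 0.05; this scale understates changes of low genes. limma was tested on simulated data. In the simulated mimic comparison the numbers did not differ, so it does not show how the mimic test performs on these libraries. Levels per length are values per kb scaled to 1000000. Members and lists were chosen with earlier results of these data known. A member was given in every library if it passed a test, had one of the 4 largest or 2 smallest differences of its set, or was GARS1, KARS1, QARS1, HARS1 or HARS2; others by range. Equal numbers are not stated to be pairs. R 4.3.3, limma 3.58.1, edgeR 4.0.16, DESeq2 1.42.0, Python 3.11.15, numpy 2.4.6, pandas 2.3.3 and matplotlib 3.10.9 were used.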

Additional observations from a re-analysis of the deposited data

How the results depend on the processing

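Other pseudocounts, filters, scalings (TMM, upper quartile), edgeR, DESeq2 and limma voom on recovered reads, protein-coding transcripts only and each library left out were tried; where 1 library remains on a side, it is assumed to vary like the others. Between mimic and control, 0 synthetases passed in any of them. With the replicate block, 117 genes passed (55 higher, 62 lower in mimic), 0 of them synthetases; the pairing of equal numbers is not stated. Leaving out a library gave medians of -0.51 to 0.53 for cytosolic and -0.083 to 0.026 for mitochondrial genes. Between numbers, 22 to 25 synthetases passed with all libraries and 16 to 23 with 1 left out, where genes called ranged from 5160 (without mimic 2) and 5420 (without control 2) to 7941. The mitochondrial median was -0.056 with upper quartile scaling, -0.020 with protein-coding transcripts and -0.076 to 0.0090 with a library left out.

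Signs of small mimic differences turned for MARS1 (upper quartile 0.012, edgeR 0.013, DESeq2 0.011), LARS2 (0.017, 0.0033, 0.0036), QARS1 (edgeR -0.040, DESeq2 -0.039, protein-coding -0.031) and KARS1 (protein-coding -0.014), and between numbers for FARSA (upper quartile -0.0056). With a library left out, mimic differences that turned ranged over -0.58 to 0.16 (VARS1), -0.52 to 0.53 (QARS1), -0.997 to 0.98 (MARS1), -0.997 to 0.66 (PARS2), -0.26 to 0.11 (MARS2), -0.071 to 0.12 (KARS1), -0.22 to 0.35 (HARS1), -0.51 to 0.76 (NARS1), -1.07 to 1.27 (GARS1), -0.22 to 0.083 (EARS2), -0.19 to 0.18 (LARS2), -0.49 to 0.45 (FARS2) and -0.051 to 0.18 (HARS2); number differences ranged over -0.037 to 0.072 (FARSA), -0.18 to 0.012 (RARS1) and -0.076 to 0.0090 (TARS2). With a library left out, mimic and control no longer hold libraries of the same numbers. The mimic differences then contain part of the distance between the numbers. The cause of the other turns was not tested. Protein identity between paired enzymes was not run.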

Other observations

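Other genes of mitochondrial translation were compared between the numbers as well. Of 77 mitochondrial ribosomal protein genes past the filter for low values, 11 were higher and 28 lower in number 2. Over all genes tested, 26% passed as higher and 24.2% as lower. Both directions together were near the 50.2% of all genes that passed, but the list leaned to lower, with 55 genes below 0 and 22 above. The median log2 difference was -0.16, with 0 past 2-fold in either direction. Of the 13 mitochondrially encoded mRNAs, 0 were higher and 3 lower, against the same shares of all genes, with a median of -0.11. The difference from the synthetases was not tested.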
